A study of Homo sapiens with 6 samples.

Results

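The genes described here are 10 genes that mark the lung epithelial lineage or its adenocarcinomas, measured in the PC9 line. They were chosen by symbol: NKX2-1, NAPSA, SFTPB, SFTPD, FOXA1, FOXA2, GATA6, MUC1, CEACAM5 and CEACAM6, all 10 of which had a row among the 58174 genes of the deposited table. PC9 is an established human lung adenocarcinoma line that carries an activating deletion in the EGFR kinase. All 6 libraries came from PC9 cells treated with an antagomir, a chemically modified antisense oligonucleotide that blocks a small RNA. In 3 libraries, called knockdown here, it was directed against tsRNA-5001a, a fragment of a transfer RNA, and in the 3 control libraries it was the negative control antagomir. The sources state neither dose, time nor whether the libraries came from separate cultures. The p-values therefore cover only the variation among these libraries, and that variation may be technical. The small RNA itself is not among the genes counted, and its knockdown could not be checked. Everything rests on 1 cell line.

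NKX2-1, also called TTF-1, is the homeobox transcription factor that specifies the lung epithelium. With the forkhead pioneer factors FOXA1 and FOXA2 and the zinc finger factor GATA6 it switches on alveolar genes, among them the surfactant protein genes and NAPSA, which encodes an aspartic protease that processes surfactant protein B. NKX2-1 and NAPSA are stained in diagnosis to recognise lung adenocarcinoma, and some tumours of this kind lose both. MUC1 is a cell surface mucin, and CEACAM5 (carcinoembryonic antigen) and CEACAM6 are adhesion glycoproteins that are abundant on many adenocarcinomas.

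These genes were present at very unequal levels, and none of them passed the test for a difference after knockdown. FOXA1, CEACAM6, MUC1 and GATA6 were well expressed, whereas NKX2-1, FOXA2, SFTPD and SFTPB were near the limit of detection. GATA6 came closest to the threshold, at 22.1 ± 0.0713 CPM (counts scaled to library size; SD, n = 3) after knockdown against 14.04 ± 0.949 in the control, a fold of 1.57 with an adjusted p of 0.0698 by edgeR's quasi-likelihood test. FOXA1 differed the other way, at 84.0 ± 4.42 against 110 ± 4.68 CPM (edgeR adjusted p 0.16). NKX2-1 was barely detected in the control and had 24 to 34 counts per library after knockdown, with an edgeR adjusted p of 0.22.

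Each library held between 32342017 and 40066223 gene counts. Of 19040 genes tested, 223 passed an adjusted p of 0.05, or 1.17%, and 209 of these were higher after knockdown. Log2 fold changes had a median of 0.29 among the 5330 genes under 1 log2 CPM and 0.05 among all tested genes. NKX2-1, FOXA2, SFTPD and NAPSA are all under 1 log2 CPM. After removal of the abundance trend their log2 fold changes went from 2.43 to 1.92, from 0.44 to 0.15, from 0.16 to -0.35 and from 0.00 to -0.23, in that order. All 10 genes of an epithelial list were expressed, with the keratin gene KRT8 at 5313 ± 1373 TPM after knockdown and 4931 ± 151 in the control (log2 fold change in the count test -0.16, edgeR adjusted p 0.681). Of 10 immune markers 3 had at most 10 counts in any library, as did 5 of 10 fibroblast and 5 of 8 endothelial markers. Others of these markers were expressed. The immune list summed to 83.3 to 103 TPM after knockdown and 68.4 to 83.8 in the control. Most of it was CD68 (log2 fold change in the count test 0.05, edgeR adjusted p 0.889). The endothelial list summed to 17.0 to 24.4 TPM after knockdown and 12.1 to 18.6 in the control, mostly CDH5 (0.10 and 0.899). The summed TPM of the fibroblast list was 16.9 to 28.4 after knockdown and 12.02 to 15.5 in the control. Most of that sum was the collagen gene COL1A1, whose log2 fold change in the count test was 0.14 (edgeR adjusted p 0.726), and ACTA2, smooth muscle actin, was at -0.54 (0.563). In it PDGFRB, a growth factor receptor gene, rose from 0.834 ± 0.182 to 6.37 ± 1.81 CPM (edgeR adjusted p 0.00502), while LUM, a proteoglycan gene of fibroblasts, had no counts in any library.

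NKX2-1 has a start site whose surroundings hold the recognition letters of its own partners, and its promoter is shown for that reason. The sequence is from RefSeq on GRCh38.p14, chr14:36519507-36519806 on the minus strand, 5′ to 3′. It runs from 250 bases before the start to 50 after it. Capitals mark, in order, a forkhead motif, a GATA motif on the opposite strand and an NKX2-1 motif.
NKX2-1: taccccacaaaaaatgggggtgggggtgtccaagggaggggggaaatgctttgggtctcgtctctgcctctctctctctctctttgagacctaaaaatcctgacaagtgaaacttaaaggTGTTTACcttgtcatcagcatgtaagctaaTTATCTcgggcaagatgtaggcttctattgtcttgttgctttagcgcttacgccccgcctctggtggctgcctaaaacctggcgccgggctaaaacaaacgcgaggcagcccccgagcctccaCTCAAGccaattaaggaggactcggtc
The motifs searched, on both strands, were TGTTTAC or TATTTAC for forkhead factors, AGATAA for GATA factors and CTCAAG for NKX2-1. Counted from the start site, the forkhead match began at base -130, the GATA match at base -100 and the NKX2-1 match at base 24. Among 35116 RefSeq promoters of 300 bases, 5.97% held the forkhead letters, 10.3% the GATA letters and 12.4% the NKX2-1 letters. Of the 10 genes 9, all but FOXA2, had a promoter in this table, with 13 promoters between them. The other NKX2-1 promoter, at chr14:36520183-36520482, held none of these motifs. A forkhead match and a GATA match were found for 1 gene each, NKX2-1 in both cases, and an NKX2-1 match for 4 genes (NKX2-1, NAPSA, FOXA1 and MUC1). These counts are per gene, some with more than 1 promoter, whereas the percentages are per promoter, so they are not directly comparable. A match is a string of letters, not a bound site.

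CEACAM5 and CEACAM6 lie side by side on chromosome 19, 21.2 kb apart and on the same strand, and their promoters are shown for that reason. Their log2 fold changes of 0.30 and 0.39 were not particular to them, with MUC1 at 0.33. A link to the promoters was not tested. Both sequences are from RefSeq on GRCh38.p14, plus strand, at chr19:41708376-41708675 for CEACAM5 and chr19:41755280-41755579 for CEACAM6. Capitals mark the 6 runs of at least 12 bases that are identical in the alignment.
CEACAM5: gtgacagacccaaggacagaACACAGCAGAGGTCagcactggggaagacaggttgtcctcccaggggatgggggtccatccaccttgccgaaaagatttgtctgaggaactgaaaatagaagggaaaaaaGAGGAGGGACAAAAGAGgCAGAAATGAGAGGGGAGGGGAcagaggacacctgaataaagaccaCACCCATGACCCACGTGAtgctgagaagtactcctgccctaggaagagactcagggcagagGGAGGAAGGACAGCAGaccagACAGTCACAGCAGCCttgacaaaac
CEACAM6: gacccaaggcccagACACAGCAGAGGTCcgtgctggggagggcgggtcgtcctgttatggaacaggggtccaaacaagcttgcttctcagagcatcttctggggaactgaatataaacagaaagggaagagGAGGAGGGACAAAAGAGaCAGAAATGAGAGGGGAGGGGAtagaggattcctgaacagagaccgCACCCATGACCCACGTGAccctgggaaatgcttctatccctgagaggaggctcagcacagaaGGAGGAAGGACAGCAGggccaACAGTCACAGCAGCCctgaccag
Of 308 alignment columns 230 were identical, or 74.7%. With 1 promoter taken per gene, the other 35 pairs among these genes had between 39.5% and 49.4% identity. The longest shared run had 21 bases.

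Levels of different genes were compared in TPM, the deposited unit that allows for transcript length and library size. Over all 6 libraries the order was FOXA1, CEACAM6, MUC1, GATA6, CEACAM5, NAPSA, FOXA2, SFTPD, NKX2-1 and SFTPB. NKX2-1 ranked 7 of 10 after knockdown, at 0.709 ± 0.303 TPM, and 9 of 10 in the control, at 0.0796 ± 0.104 TPM. FOXA1 had a mean of 67.3 TPM and stood above CEACAM6, at 39.95 TPM, in every library without overlap of their ranges. CEACAM6 and MUC1 overlapped in range over the 6 libraries but not within either group, and CEACAM6 was above MUC1 in 6 of 6 libraries. GATA6, at 8.67 TPM, was apart from MUC1 at 26.4 TPM, and in each library it was above CEACAM5 at 4.69 TPM. CEACAM5 and NAPSA, at 2.34 TPM, overlapped in range in the control group, but CEACAM5 was above NAPSA in 6 of 6 libraries. FOXA2, SFTPD and NKX2-1, with means of 0.547, 0.395 and 0.394 TPM, could not be ordered, since FOXA2 exceeded SFTPD in 4 of 6 libraries and SFTPD exceeded NKX2-1 in 3. Among the 34855 genes above 0, FOXA1 stood at the 93.4th percentile of mean TPM and NKX2-1, whose mean pools these unequal groups, at the 43.9th.

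**Figure D1:**
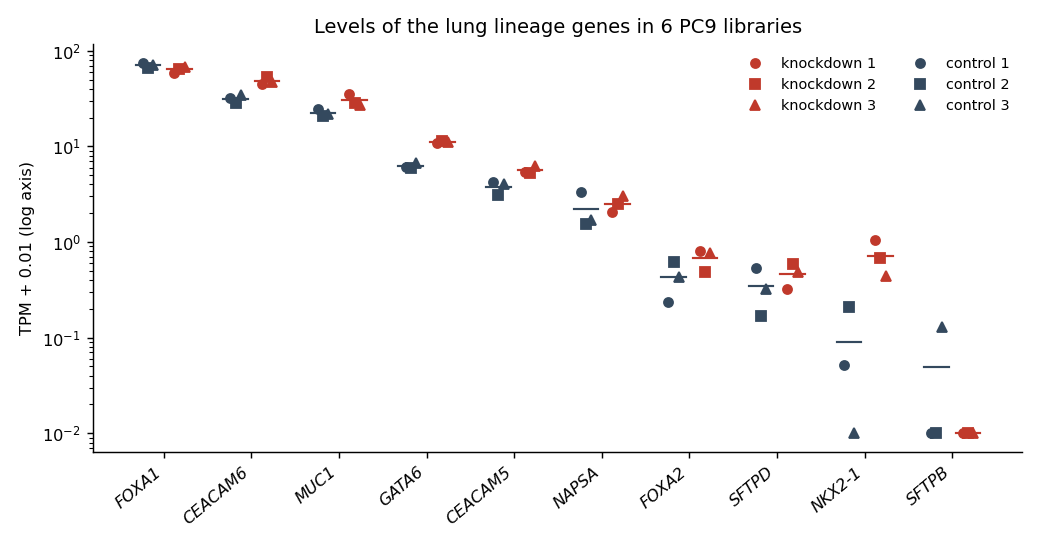
TPM + 0.01 on a log axis for the 10 genes in each library, with a point per library and a line at each group mean. FOXA1 is the highest gene in every library, SFTPB is at 0 in 5 of 6 libraries, and the NKX2-1 points of the groups do not overlap.

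The group differences in TPM lean upward for most genes, which bears on every TPM difference of these 10. Among tested genes, the TPM of the groups were apart with knockdown higher for 27.0% and with knockdown lower for 2.95%. For CPM, scaled by the trimmed mean method (TMM), the shares were 13.4% and 10.8%. The median difference of log2(TPM + 0.1) over tested genes was 0.27, against the 0.05 of the count test. Of the 10 genes, 5 were apart in TPM with knockdown higher and 0 with knockdown lower, and 5 and 1 were so in CPM. The 5 are NKX2-1, GATA6, MUC1, CEACAM5 and CEACAM6 on both scales, and the gene that was apart only in CPM is FOXA1. At an unadjusted p under 0.05 stood 4 of the 9 genes tested (GATA6, FOXA1, CEACAM6 and NKX2-1), beside 16.5% of all tested genes, and 0 passed after adjustment. NKX2-1 entered the test only through its knockdown libraries, so the filter itself favoured a rise in it, and these counts are descriptions.

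**Figure D2:**
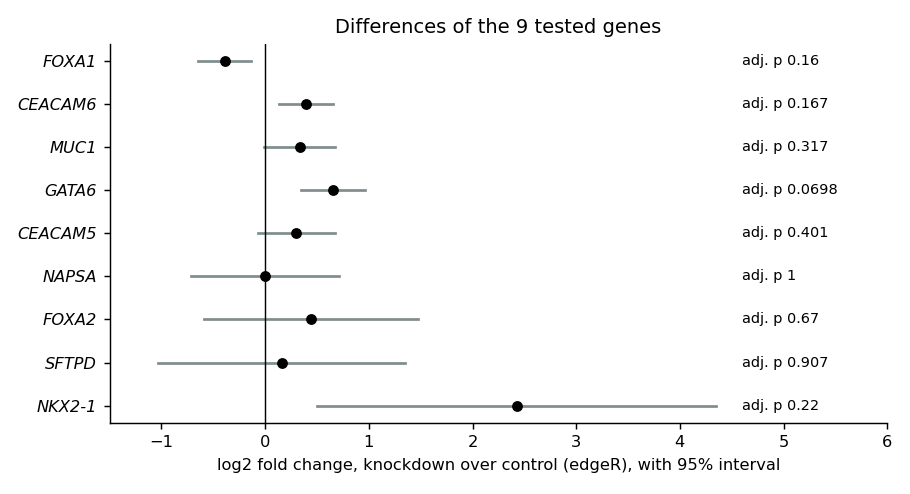
The log2 fold change of knockdown over control from edgeR for the 9 tested genes, ordered by TPM, with its 95% interval and adjusted p. FOXA1 alone lies below 0 with its whole interval, and the intervals of GATA6, CEACAM6 and NKX2-1 lie above 0.

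NKX2-1 (ENSG00000136352) lies on chromosome 14 at 36516392 to 36521149 on the minus strand. Positions are those of the deposited table, which matched GRCh38 although the submitters' processing notes name hg19. Knockdown libraries 1 to 3 had 34, 31 and 24 counts of it, against 3, 12 and 0 for the controls in the same order. In TPM these were 1.03, 0.670 and 0.427 against 0.0414, 0.198 and 0. All knockdown libraries were above all controls, at levels that were low in both groups. A count of 0 in control library 3 allows up to 0.0785 CPM, counting error only. This gave a log2 fold change of 2.43 (standard error 0.84, 95% interval 0.50 to 4.35). It ranged from 1.82 without control library 3 to 4.202 without control library 2, and was 0.65 on the log2(TPM + 1) scale. TPM per unscaled CPM varied 2.14-fold between libraries for this gene, against a median of 1.22-fold for tested genes, and how TPM were computed is not stated. The antisense gene NKX2-1-AS1, whose transcripts hold 9.07% of the 100-base windows of NKX2-1, had 0 counts in every library. SFTA3, the gene 2.56 kb away, also had 0 counts in every library. NKX2-8, a related homeobox gene 59.4 kb away, stood at 3.87 ± 1.37 CPM after knockdown and 4.11 ± 0.420 in the control (edgeR adjusted p 0.907), and its sign turned with the scaling.

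FOXA1 (ENSG00000129514, chromosome 14, 37589984 to 37596059) opens compacted chromatin for other factors and was the most abundant of the 10 genes. Its CPM was 79.7, 88.5 and 83.8 after knockdown and 106, 110 and 115 in the control. Every knockdown library was below every control library in CPM. In TPM the values were 58.5, 65.1 and 67.4 against 75.3, 66.5 and 71.1, where knockdown library 3 passed control library 2 and the groups overlapped. This gave a log2 fold change of -0.39 (standard error 0.11, 95% interval -0.65 to -0.14). It was below 0 under all 17 alternatives tried. With the groups apart in CPM, leaving out any library could hardly turn its sign. FOXA1 and NKX2-1 are 1068834 bases apart on the same chromosome and had differences of opposite sign.

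FOXA2 (ENSG00000125798, chromosome 20, 22581005 to 22585455), the paralogue that with FOXA1 governs lung branching and alveolar genes, was close to silent. It had 43, 21 and 43 counts after knockdown and 13, 34 and 25 in the control. The groups overlapped, with control library 2 above knockdown library 2. Its log2 fold change was 0.44, with a 95% interval of -0.59 to 1.47 and an edgeR adjusted p of 0.67, so folds up to 2.77 lie within the interval. LINC00261, the long noncoding gene 2.36 kb from FOXA2, had 0 counts in every library.

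GATA6 (ENSG00000141448, chromosome 18, 22169443 to 22202528) acts in lung endoderm and in alveolar maturation. It had 839, 748 and 941 counts after knockdown and 496, 445 and 577 in the control. In CPM the knockdown libraries differed little from each other and all stood above the controls, which were at 13.2, 13.8 and 15.1. In TPM they were 10.8, 11.3 and 11.2 against 6.03, 5.88 and 6.77. This gave a log2 fold change of 0.65 (standard error 0.14, 95% interval 0.34 to 0.96, or 1.27-fold to 1.95-fold). It lay between 0.61 and 0.83 over 17 alternatives, the largest in TPM. The gene passed the threshold in 2 of them, DESeq2 (adjusted p 0.0172) and scaling by library size only (adjusted p 0.0347), and over the 17 the adjusted p ran from 0.0172 to 0.269. GATA6-AS1, a gene on the opposite strand 474 bases away by the positions of the table, had 15, 16 and 28 counts after knockdown and 7, 10 and 3 in the control. That is 1.42 on the log2 scale, with an adjusted p of 0.26 by edgeR. GATA6-AS1 entered the test only through its knockdown libraries, so the filter itself favoured a rise. In GENCODE 29, transcripts of this gene and of AC091588.3 share 9.5% of the 100-base windows of GATA6. Whether counting used strand is not stated, so reads from the shared bases cannot be assigned.

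Since FOXA1 and GATA6 differed in opposite directions, their ratio was compared within each library, where scaling cancels. GATA6 had 0.278, 0.248 and 0.263 counts per FOXA1 count after knockdown and 0.126, 0.125 and 0.131 in the control. The groups were far apart relative to their spread, at a mean log2 ratio of -1.93 ± 0.0805 against -2.97 ± 0.0408 (SD, n = 3), a difference of 1.05. Since both genes were already apart in CPM in opposite directions, their ratio had to separate. An exact two-sided permutation test could then only give p = 0.1, the smallest that 3 against 3 libraries allow (0.15 adjusted over 3 ratios). CEACAM6 to FOXA1 gave the same exact p, fixed in the same way, for a difference of 0.79 on the log2 scale. The 3 ratios were chosen after the values had been seen.

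**Figure D3:**
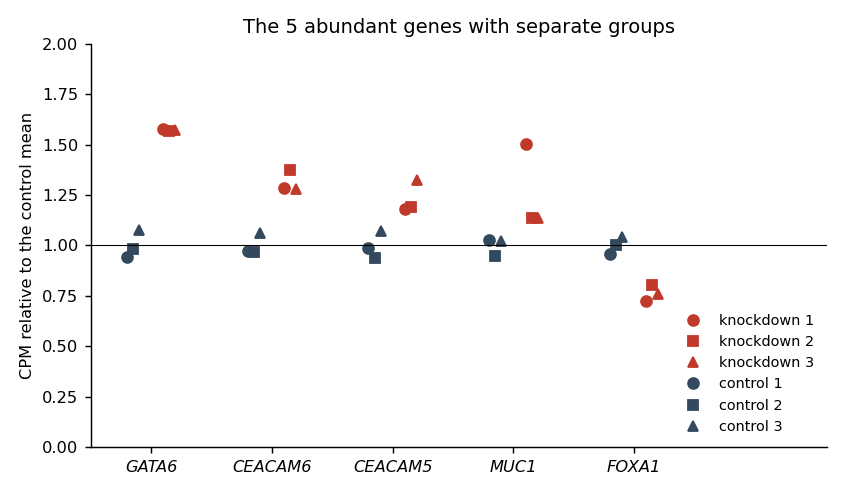
CPM of the 5 more abundant genes whose groups are apart, relative to the control mean of each gene, with a point per library. The GATA6 knockdown points nearly coincide, at a mean of 1.57 times the control, FOXA1 lies below its controls, and the high MUC1 point is knockdown library 1.

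NAPSA (ENSG00000131400, chromosome 19, 50358477 to 50365830), the surfactant-processing protease gene, was expressed at a low level and did not separate the groups. Its counts were 74, 47 and 101 after knockdown and 97, 57 and 52 in the control. In CPM and in TPM control library 1 was the highest of all 6, and the spread within each group exceeded the difference between them. At 1.90 ± 0.496 against 1.91 ± 0.627 CPM its log2 fold change was 0.00, with a 95% interval of -0.72 to 0.72 (edgeR p 0.999 before adjustment). The interval spans folds from 0.609 to 1.64. TPM per unscaled CPM varied 1.81-fold between libraries for this gene. NAPSB, a related gene 13.7 kb away that holds 1.63% of its 100-base windows, stood at 0.593 ± 0.187 and 0.562 ± 0.182 CPM.

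The surfactant genes were nearly absent. SFTPB (ENSG00000168878, chromosome 2, 85657314 to 85668741), which encodes the hydrophobic surfactant protein needed for the surface film, had 0 counts in 5 libraries and 2 in control library 3. It was too low to be tested. A count of 0 over the knockdown group allows up to 0.0262 CPM, so no fold was formed. SFTPD (ENSG00000133661, chromosome 10, 79937740 to 79982614), a collectin of innate defence, had 9, 14 and 13 counts after knockdown and 16, 5 and 10 in the control. The groups overlapped, and its log2 fold change of 0.16 had a 95% interval of -1.03 to 1.35 (edgeR adjusted p 0.907). SFTPD passed the low-count filter with 3 libraries, 2 of knockdown and 1 of control.

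CEACAM6 (ENSG00000086548, chromosome 19, 41750977 to 41772208) was the second most abundant of the genes. Its CPM was 69.8, 74.8 and 69.5 after knockdown and 52.9, 52.6 and 57.6 in the control, with no overlap. This gave a log2 fold change of 0.39 (standard error 0.12, 95% interval 0.13 to 0.66, edgeR adjusted p 0.167). In TPM it stood at 48.4 ± 4.005 against 31.5 ± 3.06.

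CEACAM5 (ENSG00000105388, chromosome 19, 41708585 to 41729798) had a difference of the same sign at a lower count. Its CPM was 7.28, 7.35 and 8.16 after knockdown against 6.09, 5.79 and 6.62 in the control. The groups were apart, but the log2 fold change of 0.30 had a 95% interval of -0.07 to 0.67 (edgeR adjusted p 0.401). There were 9.58, 10.2 and 8.51 CEACAM6 counts per CEACAM5 count after knockdown, and 8.69, 9.08 and 8.70 in the control. These ratios overlapped, and their log2 means differed by 0.09 (exact two-sided permutation p = 0.4). Neither gene's transcripts held a 100-base window of the other. The read-through gene AC243967.1, which spans both, shares 12.6% of the CEACAM5 and 1.73% of the CEACAM6 windows, and it had at most 5 counts in any library. Of 10 other CEACAM genes 9 were in the table and 2 were tested, CEACAM1 (log2 fold change 0.25, edgeR adjusted p 0.484) and CEACAM19 (0.21 and 0.55).

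MUC1 (ENSG00000185499, chromosome 1, 155185824 to 155192916) had CPM of 51.0, 38.5 and 38.6 after knockdown and 34.8, 32.2 and 34.7 in the control. Knockdown library 1 was well above the others, and the remaining knockdown libraries lay just above the controls. The log2 fold change was 0.33, with a 95% interval of -0.01 to 0.68 (edgeR adjusted p 0.317), and it was 0.17 without knockdown library 1. AL713999.1, a gene that shares 48 exon bases with MUC1, had 0, 0 and 161 counts after knockdown and 129, 163 and 82 in the control.

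**Figure D4:**
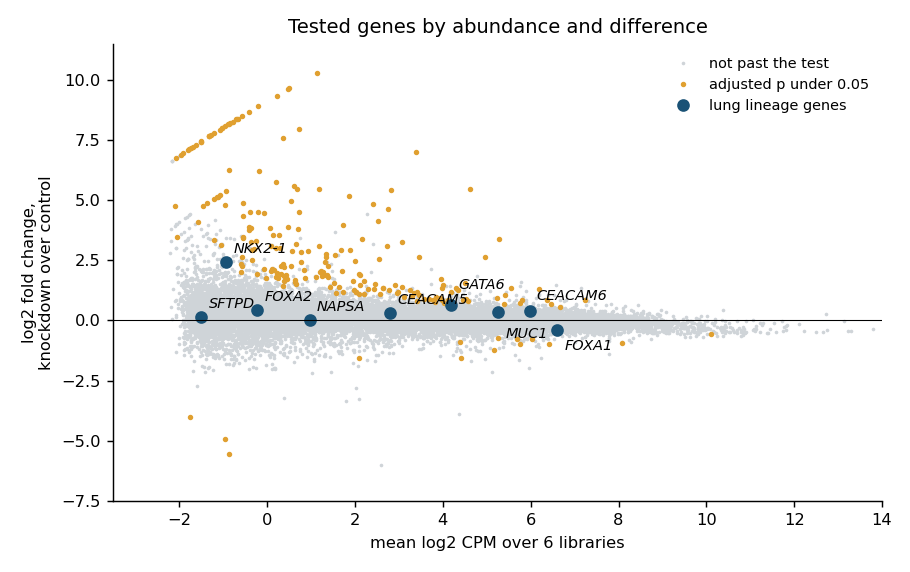
Mean log2 CPM against log2 fold change from edgeR for 19040 tested genes, with those past an adjusted p of 0.05 in orange and the 9 tested lung lineage genes in blue. NKX2-1, SFTPD and FOXA2 lie in the wide cloud of low genes, and none of the 9 is past the threshold.

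Of the other genes of the airway epithelium, from lists drawn by cell type, DDC alone passed the edgeR test. Most genes of the alveolar type I, ciliated and basal lists could be tested. Of the alveolar type II list 8 of 16 could be, and of the club and goblet list 7 of 14. The neuroendocrine and gut lists were mostly too low to be tested. Among 16 further alveolar type II genes 8 were tested, 5 above 0 and 3 below, with 0 called and a median of 0.24 on the log2 scale. Of these 8, 1 entered the test only through the knockdown libraries. The surfactant genes SFTPA1, SFTPA2 and SFTPC were too low to be tested. CTSH, which encodes the lysosomal protease cathepsin H, was the most abundant at 238 ± 4.99 TPM after knockdown and 287 ± 30.7 in the control (log2 fold change -0.34, edgeR adjusted p 0.188). Of 10 alveolar type I genes 7 were tested, 2 above 0 and 5 below (median -0.23, 0 called). CLIC5 had the lowest p among them, at 0.554 ± 0.127 against 0.0349 ± 0.0604 CPM (edgeR adjusted p 0.0981). It entered the test only through its knockdown libraries, so the filter itself favoured a rise. It passed the threshold in 2 of 16 alternatives.

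Of 14 club and goblet cell genes 7 were tested, with 5 above 0 and 0 called (median 0.22). Of these 7, 1 entered the test only through the knockdown libraries. LCN2, a secreted iron-scavenging lipocalin, was the most abundant at 1228 ± 42.3 and 900 ± 53.6 TPM. Its log2 fold change in the count test was 0.22 (edgeR adjusted p 0.378). BPIFB1, an airway secretory protein gene, differed by 0.45 on the log2 scale (adjusted p 0.244, edgeR). Of 10 ciliated cell genes 9 were tested, with a median of 0.03 and 0 called. Of 10 basal and squamous genes 9 were tested, 8 of them above 0 (median 0.91, 0 called), but 4 of the 9 entered the test only through the knockdown libraries. In that list DSG3, a desmosomal cadherin gene, had 12, 10 and 16 counts after knockdown and 0 in each control. Taking 3 counts over all controls as the floor, it was at least 11.9-fold higher (edgeR adjusted p 0.0517). It passed the threshold in 3 of 16 alternatives, with adjusted p from 0.0055 to 0.344. After removal of the abundance trend this list had a median of 0.41.

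**Figure D5:**
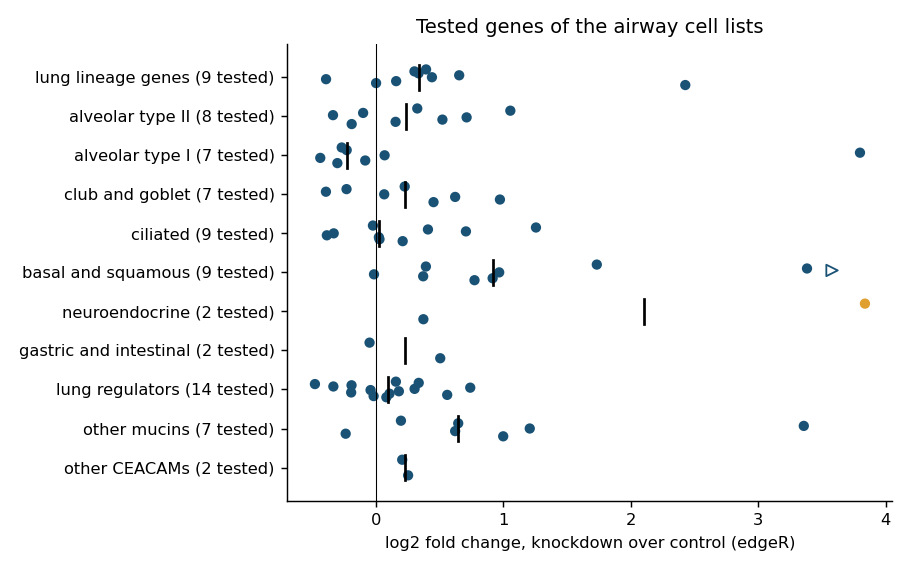
Log2 fold changes from edgeR of the tested genes of each list, with a black bar at the list median and orange for an adjusted p under 0.05. DDC is the orange point. The open triangle is DSG3 at its lower bound, which is 0 in every control library.

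Neuroendocrine genes were mostly silent, with 6 of 10 at 0 in every library and 2 tested. DDC, aromatic amino acid decarboxylase, rose from 0.0879 ± 0.0802 to 1.35 ± 0.302 CPM, by 3.84 on a log2 scale (adjusted p 0.0343, edgeR). It entered the test only through the knockdown libraries and kept its call under 8 of 16 alternatives. Leaving out any 1 library other than control library 2 ended the call, at edgeR adjusted p between 0.0641 and 0.111. Of 12 gastric and intestinal lineage genes 2 were tested, TFF1 and LGALS4, and 0 were called. TFF1, a trefoil peptide gene, stood at 1.04 ± 0.248 against 0.740 ± 0.450 CPM. Of 21 other transcription factor genes of lung epithelium 14 were tested, 8 above 0 and 6 below (median 0.09, 0 called). CEBPB and ELF3 led them, at 367 ± 24.5 and 289 ± 34.8 TPM after knockdown and 359 ± 10.4 and 205 ± 11.3 in the control. In the count test their log2 fold changes were -0.20 and -0.02 (edgeR adjusted p 0.475 and 0.947), so the TPM difference of ELF3 was not seen in CPM. TEAD1, a partner of the YAP coactivator, had the lowest p (log2 fold change 0.33, edgeR adjusted p 0.264). Of 13 mucin genes other than MUC1, 7 were tested and 6 of these were above 0 (median 0.64, 0 called). Of these 7, 1 entered the test only through the knockdown libraries. MUC12, a membrane mucin, stood at 3.05 ± 0.489 against 1.32 ± 0.127 CPM (log2 fold change 1.21, edgeR adjusted p 0.0549). It passed the threshold in 5 of 17 alternatives, with adjusted p from 0.0136 to 0.205. For all tested genes the median was 0.05 and 55.9% were above 0.

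The genes most like each of GATA6, FOXA1 and CEACAM6 over the 6 libraries were found by Pearson's r of log2 CPM among 12658 genes. These points fall into the same 2 groups, so r mainly records the group difference and is given as a description. RELN, which encodes the extracellular protein reelin, was closest to GATA6 (r = 0.996), at 11.95, 11.4 and 13.0 CPM after knockdown and 3.85, 4.34 and 5.52 in the control. Its log2 fold change was 1.40, past the threshold (adjusted p 0.015, edgeR). The call held in 13 of 17 alternatives and was lost with the replicate block (adjusted p 0.0773) and without knockdown library 3 (0.0695), control library 1 (0.0538) or control library 2 (0.0644). HIST1H4H, a histone gene, followed (r = 0.995). RABIF and SFPQ, the latter a nuclear RNA-binding protein gene, were closest to FOXA1 (r = 0.995 and 0.993). FBXO32, a ubiquitin ligase subunit gene, and CTH, a gene of cysteine synthesis, were closest to CEACAM6 (r = 0.999 and 0.994). Above r = 0.9 there were 297 genes for GATA6, 259 for FOXA1 and 325 for CEACAM6.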

How the data were processed

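RNA of 6 PC9 libraries was sequenced on an Illumina platform, mapped and counted per gene by the authors, per the labels' protocols. No aligner or counter is named in these sources, and the submitters' processing notes name hg19. The table deposited by the authors gives whole-number counts, TPM and FPKM, and the FPKM deposited by the authors were not used. Of 57836 genes shared with GENCODE 29 (GRCh38), 96.8% had identical positions in the table. Members and lists were chosen with earlier results of these data known.

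Counts were filtered with filterByExpr (10 counts, here 0.265 CPM in 3 libraries), scaled by TMM and tested over all genes with edgeR 4.0.16 (quasi-likelihood F-test, Benjamini-Hochberg, R 4.3.3). Standard errors came from the fold change and F statistic. CPM use TMM-scaled totals unless called unscaled. DESeq2 1.42.0 and limma 3.58.1 were alternatives. In simulated data for this comparison of 18556 genes, 2.99% of 67 changes of 1.5-fold were recovered. The shares were 31.3% of 67 for 2-fold and 95.5% of 66 for 4-fold. There were also 15 false calls, a larger share of all calls made than the 0.05 of the threshold. The changes of known fold were set only in genes above a minimum mean CPM, and recovery in genes below it was not tested. Named list genes were those past the test or, failing that, the 2 highest in TPM and the lowest p. Look-alikes were the 2 highest r for the 3 members of lowest p. Of the genes so chosen, some are given by level only or not printed. SFTA3 names 2 rows of the table, and the row GENCODE calls SFTA3 was used. CEACAM18 and FOXA2-AS1 were not matched. Libraries of a group differed by a chi-square per degree of freedom of 33.8 to 85.6, so all were kept separate.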

Additional observations from a re-analysis of the deposited data

How the results depend on the processing

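With 3 libraries per group, 31.3% of 67 changes of 2-fold were recovered in the simulated data. Recovery at the level and spread of each lung lineage gene was not tested. The count of 223 genes was 147 without a filter, 141 with a stricter one, 634 with DESeq2, 375 and 397 with limma on log2(TPM + 0.1) and log2(TPM + 1), and 117 with the abundance trend removed. Leaving out 1 library gave 66 to 126. The replicate number as a block gave 34 genes and 0 of the lung lineage genes. Deviations of libraries with the same number correlated at 0.00831, -0.0788 and -0.02563, and the number was not taken as a pairing. Of the lung lineage genes 0 passed under the other settings, but 1, GATA6, passed with library size only and 1, again GATA6, with DESeq2. FOXA1, GATA6, CEACAM6, CEACAM5 and MUC1 kept their sign under 17 of 17 alternatives, and NKX2-1 and FOXA2 under 16 of 16. All of these but FOXA2 were already apart in CPM, so leaving out 1 library could hardly turn their sign. NKX2-1 also entered the test only through its knockdown libraries. NAPSA, at 0.00, turned to -0.0274 with DESeq2 size factors, -0.0045 without a filter, -0.027 with DESeq2 and -0.23 with the abundance trend removed, and leaving out 1 library gave -0.19 to 0.29. SFTPD turned to -0.35 with the abundance trend removed and lay between -0.12 and 0.58 with 1 library left out. NAPSB turned from 0.08 to -0.24 with that trend removed and lay between -0.115 and 0.3623 with 1 library left out. NKX2-8 turned from -0.09 to 0.0348 with library size only, 0.0706 with limma on log2(TPM + 0.1), filtered or not, and 0.0675 on log2(TPM + 1), and lay between -0.3368 and 0.1733 with 1 library left out. The median of all genes was 0.17 with library size only. The causes were not tested.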
